A study of Homo sapiens with 12 samples.

Results

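The cGAS-STING pathway detects DNA in the cytosol, and 6 of its core genes were examined here in SK-N-DZ, a human MYCN-amplified neuroblastoma line: the sensors CGAS and IFI16, the adaptor STING1, the kinases TBK1 and IKBKE, and the exonuclease TREX1. They were taken by name from a count table of 43769 genes, by a rule that uses no measured value. The choice of genes was made with earlier results of these data known. Of the 6, 5 had at least 1 read count in some library. The 12 RNA sequencing libraries fell into 4 groups of 3: untreated cells (C), cells given doxycycline for 4 days (D), cells given interferon gamma (IFNγ) for 24 h (I), and cells given both (DI). Doxycycline was used to switch on a short hairpin RNA against ARID1A, a DNA-binding subunit of the SWI/SNF chromatin remodeler; the labels give D and DI the genotype shARID1A and call C and I WT. Per the study's methods the cells were puromycin-selected clones carrying the hairpin in a lentiviral doxycycline-inducible vector, so all 4 groups share that construct, and which clone gave these libraries is not given in the sources used here. No library analysed here had doxycycline without the hairpin, so the drug and the hairpin cannot be told apart.

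In this pathway cGAS binds double-stranded DNA outside the nucleus and makes the messenger cyclic GMP-AMP (cGAMP). STING, an endoplasmic reticulum protein, binds cGAMP, moves toward the Golgi and recruits TBK1 and its relative IKKε (the IKBKE product), which lead to activation of the transcription factor IRF3 and to interferon beta. IFI16 is a largely nuclear DNA-binding protein that acts with cGAS and STING and was named for its induction by IFNγ, TREX1 degrades cytosolic DNA before it is sensed, and silencing of CGAS or STING1 is described in many tumor lines.

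IFI16 held the largest difference among the 6 genes, and the 2 promoter windows that RefSeq gives for it (GRCh38.p14, plus strand, 250 bases before to 50 after each start) are shown for that reason. The first is chr1:159008741-159009040 and the second chr1:159009657-159009956. Capitals mark matches to AANNGAAA, the core letters bound by interferon regulatory factors, read on both strands.

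IFI16 window 1: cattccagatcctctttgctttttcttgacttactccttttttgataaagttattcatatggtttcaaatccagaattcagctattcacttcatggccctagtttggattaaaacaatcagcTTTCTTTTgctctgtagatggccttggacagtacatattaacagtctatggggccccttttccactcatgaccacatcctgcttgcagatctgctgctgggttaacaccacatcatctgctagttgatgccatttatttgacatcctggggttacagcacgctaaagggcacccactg

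IFI16 window 2: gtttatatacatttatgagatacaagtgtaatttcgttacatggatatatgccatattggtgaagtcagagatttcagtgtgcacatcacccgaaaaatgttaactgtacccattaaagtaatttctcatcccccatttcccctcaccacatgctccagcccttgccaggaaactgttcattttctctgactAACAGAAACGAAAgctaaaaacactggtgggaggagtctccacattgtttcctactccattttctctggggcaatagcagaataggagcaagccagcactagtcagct

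Window 1 held 1 match, on the minus strand at bases -128 to -121 from the start (printed as TTTCTTTT). Window 2 held 2 overlapping matches, AACAGAAA at -58 to -51 and AAACGAAA at -53 to -46. The core was found in 22.8% of the 35116 RefSeq promoter windows. In IKBKE it was present once (-115 to -108), and no match was found in the windows of TBK1 and TREX1. The longer interferon-stimulated response element, searched as GAAA, any 2 bases and GAAA on both strands (3.57% of windows; a match also contains the core), was not found in any of these windows, and promoters of CGAS and STING1 were not analysed here. A match of letters is a description of the window and not a binding site.

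Library totals ranged from 16469832 to 21790869 counts, and 3 counts, taken as the floor of detection, corresponded to 0.135 to 0.187 CPM (counts per 1000000 counts, scaled with TMM factors). All 10 adrenergic neuroblastoma markers, MYCN among them, reached 1 CPM in every group (summed 4450 to 6122 CPM per library), and none of 10 leukocyte and myeloid markers did (summed 0.564 to 2.40 CPM). Between 4 and 6 of 8 mesenchymal and fibroblast markers reached 1 CPM (summed 78.6 to 171 CPM), as did 1 or 2 of 5 endothelial markers (1.58 to 5.47 CPM). ARID1A mRNA was 182 ± 16.4 CPM (SD, n = 3) in C and 171 ± 22.1 in D, a log2 change of -0.09 (SE 0.109, adjusted p = 0.788). It was 196 ± 5.72 CPM in I and 144 ± 9.70 in DI, a log2 change of -0.44 (SE 0.110, adjusted p = 0.115). The adjusted p of this change was 0.0111 with replicate number as a block in the model and 0.0149 by DESeq2. Without replicate 3 of every group it was 0.489, and with no filter on low counts 0.245. Replicate 3 libraries stood apart for IFI16 in both IFNγ groups, and all 4 had 0 counts of STING1 (as had D replicate 1), so results resting on them are given with and without replicate 3. In bulk RNA, fewer expressing cells and less RNA per cell cannot be told apart.

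Of the 6 genes, 4 passed the filter on low counts and were tested (IFI16, STING1, TBK1 and IKBKE). CGAS, with 1 to 15 counts a library, and TREX1, with 0, did not pass. IFI16 passed through the IFNγ libraries in which it was high, since without IFNγ only D replicate 2 had at least 10 counts. STING1 had at least 10 counts only in I replicates 1 and 2 (18 and 11), so its passing also depended on IFNγ libraries. The place of IFI16 or STING1 among the tested genes is therefore no support for a difference with IFNγ. The model was edgeR's quasi-likelihood fit of the 4 groups, with Benjamini-Hochberg adjustment over 15828 genes and a gene called at an adjusted p under 0.05. For IFNγ alone (I against C) 0 of the 4 were called, 1 (IFI16) had an unadjusted p under 0.05, and DESeq2 called 1 (IFI16); 2.21% of all tested genes were called. For IFNγ in doxycycline-treated cells (DI against D) the count was again 0 of 4, with IFI16 at an unadjusted p under 0.05 and 0 called by DESeq2, against 1.72% of all tested genes. For doxycycline alone (D against C) and doxycycline under IFNγ (DI against I) 0 of 4 were called, 0 had an unadjusted p under 0.05 and DESeq2 called 0, with 1.23% and 0.67% of all tested genes called. Of all 15828 genes, an unadjusted p under 0.05 was held by 1267 (I against C), 987 (DI against D), 2248 (D against C) and 1934 (DI against I). Same-numbered libraries of different groups deviated together, so the fit with a replicate block is given too. That fit called IFI16 in I against C (6.02% of genes called), in DI against D (4.46%) and in DI against I (10.5%), and none of the 4 in D against C (13.9%). Comparisons that share a group of libraries are not independent of each other.

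**Figure D1:**
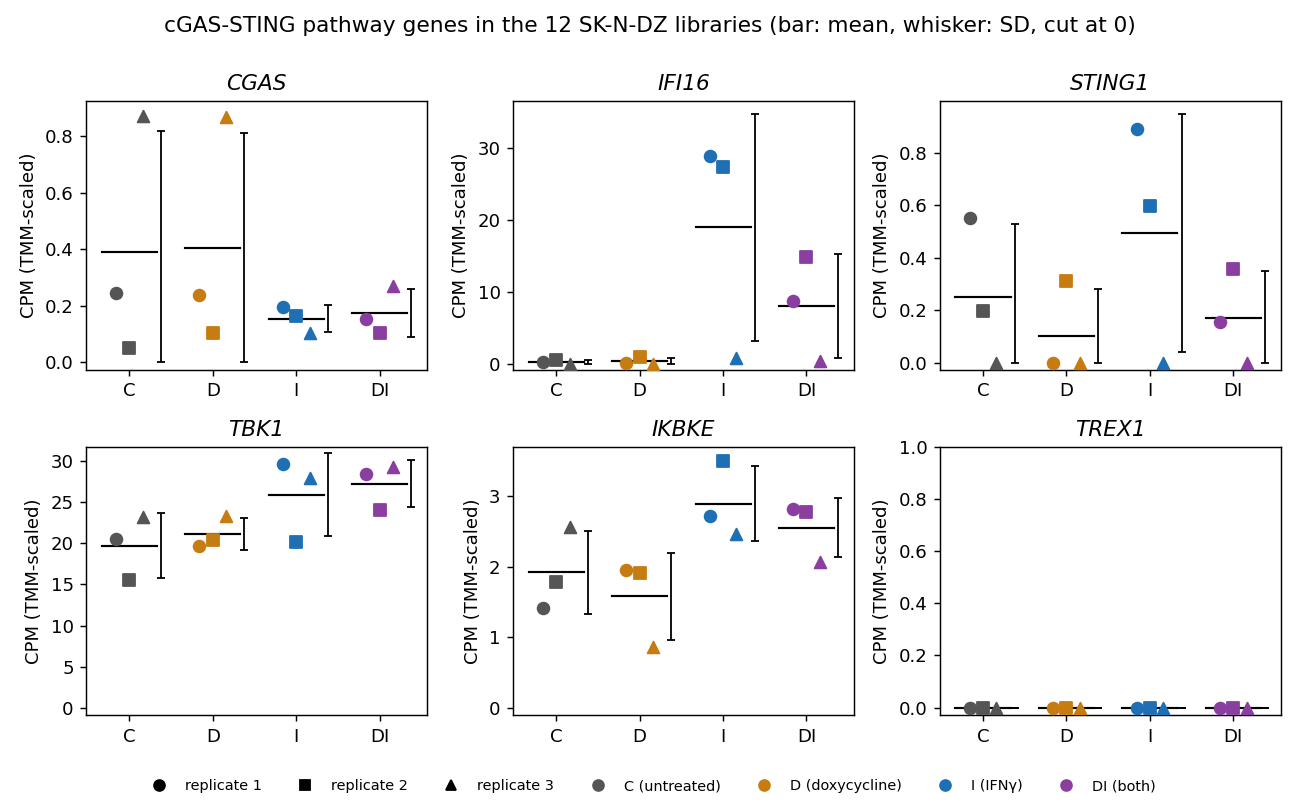
CPM (TMM-scaled, linear axes that differ between panels) of the 6 genes in the 12 libraries. Marker shape gives the replicate number, color the group, the bar the mean of 3 libraries and the whisker 1 SD, drawn no lower than 0. IFI16 sits at 28.9 and 27.3 CPM in replicates 1 and 2 of I and at 0.733 in replicate 3; STING1 is at 0 in replicate 3 of every group, and TREX1 at 0 throughout.

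CGAS, the enzyme that senses DNA, was close to the detection floor in every group. Untreated replicates 1, 2 and 3 had 4, 1 and 14 counts, and the doxycycline libraries 5, 2 and 15. The libraries with IFNγ alone had 4, 3 and 2 counts, and those with both agents 3, 2 and 6. The 2 highest libraries were therefore replicate 3 of C and of D, and all groups overlapped. The mean CGAS level was 0.389 ± 0.430 CPM in untreated cells and 0.403 ± 0.408 CPM with doxycycline (SD, n = 3). With IFNγ it was 0.155 ± 0.0471 CPM, and with both agents 0.175 ± 0.0859 CPM. In the fit without a filter on low counts the log2 change was -1.27 in I against C (SE 0.994, adjusted p = 0.983). In DI against D it was -1.14 (SE 0.971, adjusted p = 1.00), and no difference between groups was detected at this depth. Within replicate 3 the CPM ratio of I to C was 0.120 (95% exact interval of counting error 0.0132 to 0.523), whereas in replicates 1 and 2, with 4 and 3 counts in I against 4 and 1 in C, the intervals spanned 1. The ratio of DI to D in replicate 3 was 0.311 (0.0989 to 0.848), and the intervals in replicates 1 and 2 again spanned 1. About 4.33% of the CGAS exon bases overlap DDX43 on the opposite strand.

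IFI16 was near 0 without IFNγ and was counted in every IFNγ library, at levels that depended on the replicate. Counts were 3, 9 and 0 in C and 2, 17 and 0 in D. With IFNγ they were 585, 501 and 14 in I and 171, 291 and 8 in DI. In both IFNγ groups replicate 3 was far below the other two, and every I library lay above every C library (an order shared by 8.83% of tested genes), while DI replicate 3 (0.360 CPM) lay below D replicate 2 (0.879 CPM). The mean was 0.210 ± 0.224 CPM in untreated cells against 19.0 ± 15.8 CPM with IFNγ, and 0.325 ± 0.482 CPM with doxycycline against 8.01 ± 7.30 CPM with both (SD, n = 3).

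IFI16 differed by a log2 change of 6.38 between I and C (SE 1.75), and the adjusted p from the 4-group fit was 0.128. With the replicate block the log2 change was 6.51 (SE 0.496, adjusted p = 9.59e-06). Without replicate 3 of every group it was 6.40 (SE 0.80, adjusted p = 0.00956). That setting was chosen after the data were seen and leaves out the IFNγ libraries in which IFI16 was lowest, so its adjusted p is not independent support. In the 4-group fit, leaving out single libraries moved the log2 change from 5.85 (without C replicate 3) to 7.57 (without C replicate 2), with adjusted p from 0.0512 to 0.459. Within replicates, the CPM ratio of I to C was 157 in replicate 1 (95% exact interval 53.4 to 763) and 61.1 in replicate 2 (31.9 to 134). In replicate 3, with 14 counts against 0, IFI16 was at least 3.92-fold higher against the floor of 3 counts, while the 95% exact interval of the counts themselves began at 2.79. An exact two-sided permutation test of the CPM values gave p = 0.1, the smallest that 3 against 3 libraries allow.

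In doxycycline-treated cells the IFI16 difference with IFNγ (DI against D) was 4.58 on the log2 scale (SE 1.61, adjusted p = 0.435). The blocked fit gave 4.70 (SE 0.464, adjusted p = 9.68e-05), and the fit without replicate 3, chosen after the data were seen, gave 4.63 (SE 0.739, adjusted p = 0.0344). Within-replicate ratios were 92.1 (95% exact interval 25.1 to 766) in replicate 1 and 17.0 (10.4 to 29.5) in replicate 2. Replicate 3 had 8 counts against 0, at least 2.07-fold higher against the floor (95% exact lower limit of the counts themselves 1.33). In the 4-group fit the log2 change was 7.10 without D replicate 2 and 3.77 without DI replicate 2, and it was not called with any single library left out.

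Under IFNγ, IFI16 was lower with doxycycline than without it in each replicate pair, with CPM ratios of DI to I of 0.303 (95% exact interval 0.254 to 0.360), 0.546 (0.471 to 0.632) and 0.491 (0.179 to 1.25). The groups themselves overlapped. The log2 change was -1.25 (SE 1.30, adjusted p = 0.796) in the 4-group fit and -1.29 (SE 0.33, adjusted p = 0.0339) with the replicate block, and without replicate 3 and with no block it was -1.23 (SE 0.585, adjusted p = 0.706). With single libraries left out of the 4-group fit it lay between -2.06 (without DI replicate 2) and -0.68 (without DI replicate 3), uncalled. Without IFNγ, the log2 change between D and C was 0.55 (SE 1.88, adjusted p = 0.938). The test of whether the IFNγ difference itself depended on doxycycline (the interaction) gave -1.80 (SE 2.29, adjusted p = 1.00), and with the block -1.81 (SE 0.739, unadjusted p = 0.0330, adjusted p = 1.00). For that contrast the 4-group fit and the blocked fit each called 0 of 15828 genes (0%), and DESeq2 called 1, which was none of the 6. In the 4-group fit 99 genes had an unadjusted p under 0.05, and IFI16 was not among them (unadjusted p = 0.450). The corresponding number for the blocked fit is not given here.

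**Figure D2:**
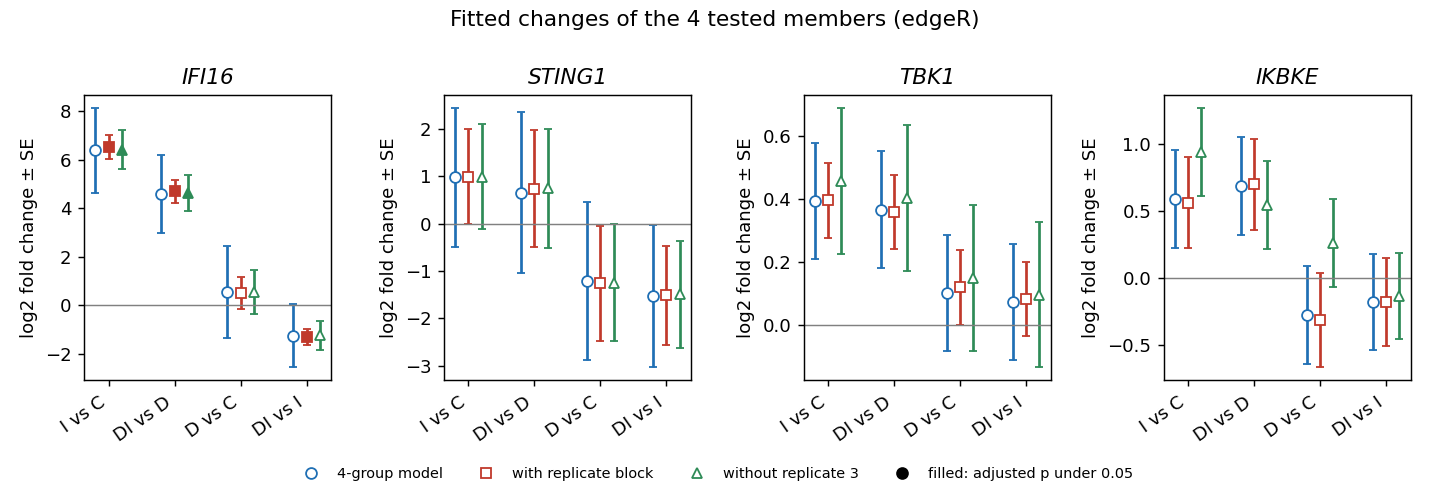
Fitted log2 fold changes with their standard errors for the 4 tested genes in 4 comparisons, from the 4-group model (circles), the model with a replicate block (squares) and the model without replicate 3 of every group (triangles); filled markers have an adjusted p under 0.05. The vertical scales differ between panels. IFI16 keeps a log2 change between 6.38 and 6.51 in I against C while its standard error falls from 1.75 to 0.496 with the block, and no marker of STING1, TBK1 or IKBKE is filled.

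Genes whose profile across the 12 libraries was nearest to that of IFI16 were sought after its values had been seen. Likeness was the root mean square difference in log2(CPM + 0.25), each gene centred on its C mean, among 13959 genes. The nearest were BANCR, a long noncoding RNA (0.991), IFI44L, an interferon-induced gene (1.02), and SP100, a nuclear body protein (1.09). BANCR was at 0 in all C and D libraries, at 14.6, 23.8 and 1.52 CPM in I and at 8.98, 9.27 and 1.31 CPM in DI. IFI44L was counted without IFNγ too, at 0.676, 4.86 and 0 CPM in C and 0.524, 2.59 and 0.174 CPM in D. It had 34.5, 76.9 and 9.90 CPM in I and 15.7, 40.8 and 4.05 CPM in DI. SP100 was at 0 in all C and D libraries. Its I values were 4.45, 5.51 and 0.628 CPM and its DI values 3.18, 2.31 and 0.405 CPM. All 3 were thus lowest in replicate 3 of both IFNγ groups, a feature the measure of likeness used.

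STING1, the adaptor, was also near the floor. Untreated replicates 1, 2 and 3 had 9, 4 and 0 counts, and the doxycycline libraries 0, 6 and 0. IFNγ alone gave 18, 11 and 0 counts, and both agents 3, 7 and 0. All 4 replicate 3 libraries were at 0, whereas the other 8 held 58 counts in all, 7 of them with at least 3. Of the 15828 tested genes, 19 were at 0 in every replicate 3 library, and 12 of these, STING1 included, had counts in at least 6 of the other 8 libraries; the corresponding numbers were 17 for replicate 2 and 1 for replicate 1. The 2 highest STING1 values were those of I replicates 1 and 2 (0.89 and 0.60 CPM), but the groups overlapped in every comparison. Log2 changes were 0.98 in I against C (SE 1.47, adjusted p = 1.00), 0.66 in DI against D (SE 1.70), -1.21 in D against C (SE 1.66, adjusted p = 0.822) and -1.53 in DI against I (SE 1.5, adjusted p = 0.776). Without replicate 3 they were 0.99, 0.74, -1.25 and -1.50, with SEs of 1.10 to 1.26. None was called in that fit or with the replicate block. Within replicate 1 the exact interval of counting error lay below 1 in D against C (0 against 9 counts, 0 to 0.393). The same held in DI against I (3 against 18 counts, CPM ratio 0.173, 0.0326 to 0.592). In replicate 2 both intervals spanned 1, with ratios of 1.56 and 0.598. For I to C and DI to D, the intervals in replicates 1 and 2 spanned 1. Such intervals cover counting error only, and at this depth no difference between groups was detected for STING1.

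TBK1, the kinase that phosphorylates STING and IRF3, had the highest mean level of the 6 in every group, although IFI16 exceeded it in I replicate 2 (27.3 against 20.1 CPM). Its level was 20.5, 15.5 and 23.2 CPM in C and 19.7, 20.4 and 23.3 in D. With IFNγ it was 29.6, 20.1 and 28.0 CPM in I and 28.4, 24.0 and 29.3 in DI. I overlapped C, whereas all DI libraries lay above all D libraries, an arrangement found in 5.77% of tested genes. The log2 change was 0.39 in I against C (SE 0.186, adjusted p = 0.668; with the block 0.40, SE 0.119, adjusted p = 0.0887) and 0.37 in DI against D (SE 0.185, adjusted p = 0.926; with the block adjusted p = 0.154). Within-replicate ratios were above 1 in all 6 pairs, from 1.21 to 1.45 for I to C and from 1.18 to 1.44 for DI to D. With doxycycline TBK1 differed by 0.10 (D against C, SE 0.186) and 0.07 (DI against I, SE 0.185) on the log2 scale, both smaller than the spread of the replicates. About 14.7% of its exon bases overlap an antisense gene, and whether counting used strand is not given in the sources used here.

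IKBKE, which encodes the TBK1-related kinase IKKε, was counted at a lower level. C held 1.41, 1.79 and 2.55 CPM and D 1.95, 1.91 and 0.868, whereas I held 2.72, 3.49 and 2.46 and DI 2.82, 2.77 and 2.07. D replicate 3 was the lowest library (15 counts). DI lay wholly above D, as in 5.77% of tested genes, while I overlapped C. For the DI and D values of TBK1 and of IKBKE, the exact two-sided permutation test gave p = 0.1. The log2 change was 0.59 in I against C (SE 0.363, adjusted p = 0.883) and 0.69 in DI against D (SE 0.364, adjusted p = 0.973), neither called under any model. In I against C, replicates 1 and 2 gave ratios of 1.92 and 1.95 and replicate 3 gave 0.964, and without replicate 3 the log2 change was 0.94 (SE 0.33, adjusted p = 0.511). For D against C it was -0.28 (SE 0.366, adjusted p = 0.816) with replicate 3 and 0.26 without it. DI against I gave -0.18 (SE 0.359, adjusted p = 0.917).

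TREX1, the exonuclease, was listed at 0 counts in all 12 libraries. In GENCODE 29 (GRCh38) TREX1 lies at chr3:48465811-48467645 on the plus strand, and 100% of its 1515 exon bases fall inside exons of ATRIP, a partner of the ATR kinase at chr3:48446710-48467645 on the same strand. ATRIP itself had 213 to 399 counts, with group means between 15.0 ± 3.29 CPM (I) and 16.5 ± 2.03 CPM (C; SD, n = 3). Of 74 protein-coding genes wholly inside exons of other genes on the same strand, 52 (70.3%) were at 0 in all libraries, compared with 1920 of 11053 (17.4%) that share no exon base. How reads in shared exons were assigned is not given in the sources used here, and its part in the TREX1 zeros was not tested. Reads of TREX1 and of the shared ATRIP exons cannot be told apart in these counts, so no statement on TREX1 expression is made.

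The other 5 genes lie at chr6:73413515-73452276 (CGAS, minus strand), chr1:158999968-159055155 (IFI16, plus), chr5:139475534-139482935 (STING1, minus, named TMEM173 in GENCODE 29), chr12:64451880-64502108 (TBK1, plus) and chr1:206470476-206496889 (IKBKE, plus). These positions are those of GENCODE 29 on GRCh38, which held all 43769 gene identifiers of the table. Exon lengths from it were used to compare levels between genes as CPM per kilobase of exon.

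In untreated cells TBK1 ranked first at 4.14 ± 0.819 CPM per kilobase, followed by IKBKE at 0.506, CGAS at 0.0937, STING1 at 0.0651 and IFI16 at 0.0397. TBK1 and IKBKE did not overlap, nor did IKBKE and CGAS, but CGAS, STING1 and IFI16 overlapped each other and their order is not resolved. The order in D differed only among these 3 overlapping genes. With IFNγ alone IFI16 stood second, at 3.59 ± 2.99 CPM per kilobase, with values that overlapped those of TBK1 above it (5.44) and IKBKE below it (0.762). In DI, TBK1 was at 5.72 CPM per kilobase and IFI16 at 1.51 ± 1.38, the latter overlapping IKBKE (0.673), with STING1 (0.0444) and CGAS (0.0422) lowest among the genes with counts.

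Beyond the 6 genes, 90 other genes of the pathway were listed by role, and 73 were tested. The list was drawn up with earlier results of these data known. The counts that follow therefore describe the listed genes and are no support for a response of the pathway. In I against C, 8 of the 73 rose and none fell (over all tested genes 2.1% rose and 0.114% fell), with a median log2 change over the 73 of 0.0065 beside -0.0081 over all tested genes. In DI against D, 6 rose and none fell (1.67% and 0.0505% of all tested genes), and the blocked fit called 8, all higher (3.77% of all tested genes higher and 0.695% lower). All 7 listed outputs were too low to test, including IFNB1, the interferon beta gene, at 0 in all 12 libraries, and CXCL10, a chemokine, with 4 counts in all.

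Both transcription factors of the interferon arm rose with IFNγ. IRF3, the direct target of TBK1, was at 22.1, 14.9 and 18.4 CPM in C and at 36.6, 43.0 and 44.8 in I. Every I library lay above every C library, as in 8.83% of tested genes. The log2 change of IRF3 was 1.17 (SE 0.163, adjusted p = 0.00185) in I against C and 1.12 (SE 0.163, adjusted p = 0.00309) in DI against D. Both calls were absent without replicate 3 (adjusted p = 0.107 and 0.131). IRF7, which amplifies interferon production, had 6.88, 6.15 and 6.79 CPM in C and 23.7, 33.9 and 30.3 in I. It rose by 2.15 (SE 0.222, adjusted p = 0.000176) and 1.82 (SE 0.220, adjusted p = 0.000681) on the log2 scale. The other 3 of the 5 listed factors (RELA, NFKB1 and STAT6) were not called.

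Among 24 genes of STING trafficking and regulation, all tested, 3 rose in I against C. USP18, an ISG15-removing protease and brake on interferon receptor signaling, was at 0 to 0.307 CPM in C and at 13.2, 6.76 and 13.6 CPM in I (log2 change 5.72, SE 0.801, adjusted p = 0.00191). TRIM56, a ubiquitin ligase that acts on STING, rose by 3.36 (SE 0.216, adjusted p = 3.53e-06) and by 3.37 in DI against D (SE 0.214, adjusted p = 4.06e-06). STIM1, an endoplasmic reticulum calcium sensor that retains STING there, rose by 0.84 (SE 0.125, adjusted p = 0.00298), a call absent without replicate 3 (0.62, adjusted p = 0.0652). In DI against D, USP18 rose by 5.33 (SE 0.783, adjusted p = 0.0033), and STIM1 (0.50) was not called by the 4-group fit (adjusted p = 0.0972) but was by the blocked fit (adjusted p = 0.0330) and by DESeq2.

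Of 12 nucleases and cGAMP hydrolases, 9 were tested and 1 rose with IFNγ. SAMHD1, a deoxynucleotide triphosphohydrolase, was at 65.4, 63.2 and 63.7 CPM in C and at 480, 487 and 399 CPM in I (log2 change 2.83, SE 0.158, adjusted p = 1.31e-06). In D it was at 87.3, 59.0 and 69.7 CPM and in DI at 330, 255 and 280 (2.00, SE 0.153, adjusted p = 1.63e-05). SAMHD1 was lower in DI than in I (-0.66, SE 0.148, adjusted p = 0.0809), a difference called with the block (-0.67, adjusted p = 0.00497) and by DESeq2. Without replicate 3 of every group, SAMHD1 was uncalled in DI against I (-0.71, adjusted p = 0.451). Its interaction was -0.83 (SE 0.210, adjusted p = 1.00). ENPP1, which hydrolyses cGAMP outside the cell, was at 0 in replicate 2 of C and I, at 0.103 and 0.154 CPM in replicate 2 of D and DI, and at 3.48 to 10.2 CPM in every library of replicates 1 and 3.

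Among 11 kinase scaffolds and partners, OPTN, an autophagy receptor that binds TBK1, was the one called, with 11.98, 14.3 and 20.3 CPM in C and 114, 172 and 154 in I (log2 change 3.24, SE 0.337, adjusted p = 0.000186). It rose by 3.39 in DI against D (SE 0.342, adjusted p = 0.000163). TANK, a scaffold of TBK1 and IKKε, had a log2 change of 0.14 in I against C and 0.10 in DI against D, neither called. Of 10 cofactors and regulators of cGAS, 9 were tested and TRIM14, which protects cGAS from degradation, rose by 0.79 in I against C (SE 0.170, adjusted p = 0.0347), a call lost when any one C library, any one I library or DI replicate 3 was left out (adjusted p = 0.0521 to 0.145). None of 6 tested cGAMP transporters, of 8 listed, was called.

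Of 13 other DNA sensors and co-sensors, 9 were tested, and none was called with IFNγ. Among the untested, PYHIN1 and MNDA, relatives of IFI16, were at 0 throughout and ZBP1, a sensor of left-handed nucleic acids, had 2 counts in all. AIM2, another relative of IFI16 and an inflammasome sensor, named after its values were seen, had 18, 11 and 5 counts in I and 0, 0 and 1 in C. In DI it had 5, 9 and 0 counts and in D 0, 0 and 3, where the groups overlapped.

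**Figure D3:**
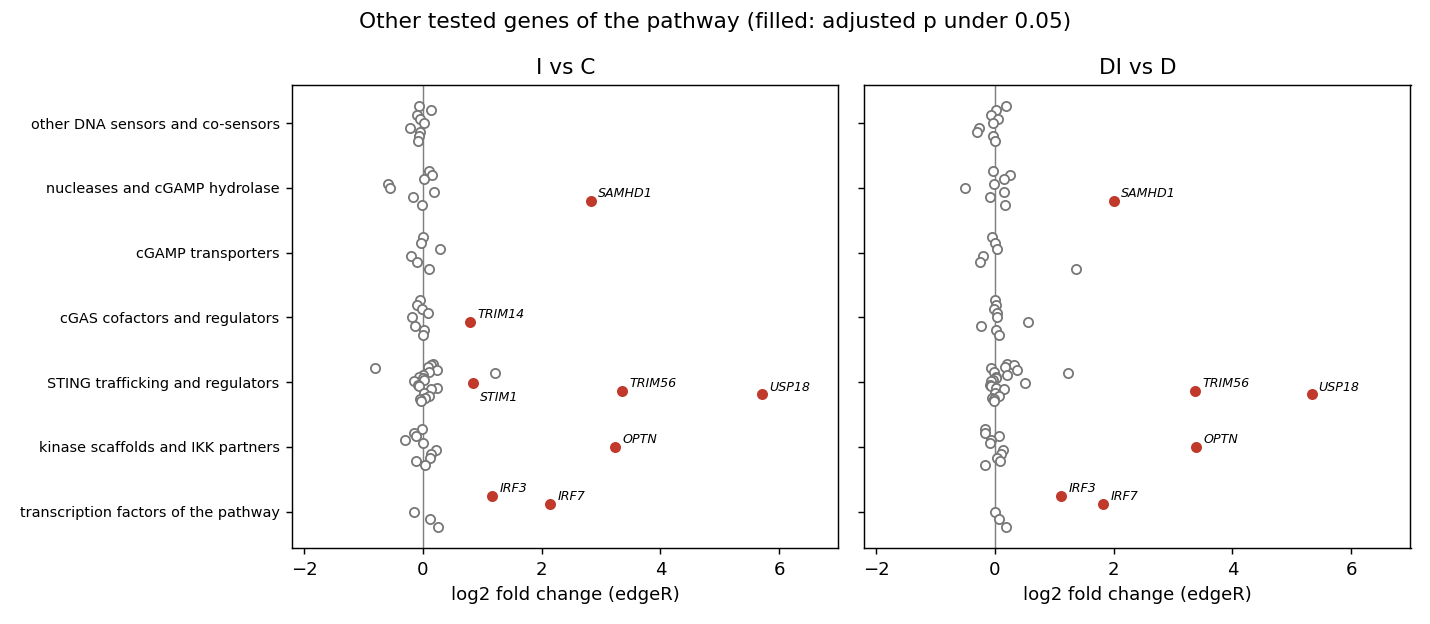
Log2 fold changes (edgeR, 4-group model) of the 73 other tested pathway genes by role, in I against C (left) and DI against D (right); filled points have an adjusted p under 0.05. The 8 called genes in I against C reach from 0.79 (TRIM14) to 5.72 (USP18), and most open points lie close to 0.

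With doxycycline alone 1 of the 73 genes was called, beside 1.23% of all tested genes. PRKDC, the catalytic subunit of the DNA-dependent protein kinase, rose from 478, 417 and 411 CPM in C to 892, 651 and 657 in D (log2 change 0.75, SE 0.130, adjusted p = 0.0225; with the block adjusted p = 0.000565). The call was lost on leaving out any one C library or D replicate 1 (adjusted p = 0.0506 to 0.123). It was also lost without replicate 3 of every group (adjusted p = 0.210). The blocked fit called 10 of 73 in D against C: 2 were higher (PRKDC and DNASE1) and 8 lower, OPTN among them, by log2 changes from -2.34 (SLC46A3) to -0.28 (SURF4). In DI against I 0 were called and 11 of the 73 had an unadjusted p under 0.05, beside 1934 of all 15828 tested genes. DESeq2 called 3 of the 84 it tested, beside 471 of 26556 genes. The blocked fit called 8, of which PRKDC and DNASE1 were higher. SAMHD1, STIM1, SURF4, RNF5, TRAF3 and MAP3K7 were lower, from -0.67 (SAMHD1) to -0.28 (SURF4). The counts of the blocked fit stand beside 13.9% (D against C) and 10.5% (DI against I) of all tested genes called by that fit.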

How the data were processed

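RNA of 12 SK-N-DZ libraries (3 in each of 4 groups, grouped by the sample labels) was sequenced by the study as paired-end Illumina reads. The authors deposited raw read counts per gene. The aligner, counter, strand setting and genome build are not given in the sources used here. The labels name DESeq2. The deposited tables of the authors' own comparisons (fold changes, p-values and 18 per-library columns that could not be matched to samples) were not used.

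Counts were tested with edgeR 4.0.16 (R 4.3.3; TMM scaling, filterByExpr with a minimum count of 10, 15828 genes kept, quasi-likelihood fit of 4 groups), with Benjamini-Hochberg adjustment and a threshold of 0.05. CPM values are TMM-scaled. Ratios within replicates carry 95% exact binomial intervals, which like the floor of 3 counts cover counting error only. Single CPM values were compared by exact permutation. Alternatives were DESeq2 1.42.0 and its size factors, library size alone, no filter or at least 1 CPM in 3 libraries, the compared groups alone, a replicate block and each library left out; the following were chosen after seeing the data: leaving out replicate 3 of every group and the block without a filter. The fits were tested on simulated counts first.

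Same-numbered libraries of different groups deviated together from their group means (r 0.338 to 0.804 over 18 pairs, against -0.628 to 0.143 over 36 pairs of different numbers), so the numbers were taken as pairing the libraries; the labels do not say what a number marks. They also do not say that replicates were separate cultures, so p-values measure the spread between these libraries, which may be technical. Replicates differed by far more than counting noise (chi-square per gene 18.4 to 78.6). The members and gene lists were chosen with earlier results of these data known. Named genes were the 6 members, ARID1A, ATRIP, up to 8 called pathway genes per comparison by size of change with a mean of at least 1 CPM, and IRF3, IRF7, IFNB1, CXCL10, SAMHD1, ZBP1, TANK and ENPP1 whatever their values. Genes named outside this rule (the nearest profiles, AIM2, PYHIN1, MNDA, RELA, NFKB1, STAT6 and the genes called by the block alone) were chosen after their values were seen. GENCODE 29 and RefSeq tables gave positions, exon lengths and promoter windows; the build of the counts being unknown, positions are those of the annotation.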

Additional observations from a re-analysis of the deposited data

How the results depend on the processing

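The replicate block raised the count of the 6 genes called from 0 to 1 (IFI16 each time) in I against C, DI against D and DI against I, with a filter and without one. Leaving out replicate 3 of every group gave 1 in I against C and 1 in DI against D, beside 247 and 215 of all 15892 tested genes. DESeq2 gave 1 in I against C, beside 529 of 26556 genes. The block also made ARID1A and SAMHD1 calls in DI against I and STIM1 and TRIM14 (0.58) calls in DI against D, all but TRIM14 also called by DESeq2, and changed no other call among the 6. Leaving out single libraries gave 0 calls among the 6 in every comparison. Of the 90 other pathway genes, 74 were tested without replicate 3 and 5 were called in I against C. Over all genes that fit called 247 of 15892. In D against C, where 1 was called, the count was 4 with DESeq2, 10 with the block (with or without a filter), 0 with the compared groups alone and without replicate 3, and 0 to 1 with single libraries left out. In DI against I it was 3 with DESeq2, 8 with the block and 6 with the block and no filter. Without replicate 3, IKBKE turned to 0.26 in D against C and to -0.39 in the interaction. Signs also turned with one library left out, within uncalled ranges of -1.97 to 1.75 (IFI16), -0.056 to 0.23 (TBK1) and -0.47 to 0.011 (IKBKE) in D against C, -0.46 to 4.73 (STING1, DI against D), -0.080 to 0.18 (TBK1, DI against I), and, in the interaction, -2.98 to 0.73 (IFI16), -1.49 to 3.75 (STING1), -0.18 to 0.14 (TBK1) and -0.19 to 0.30 (IKBKE). The causes were not tested. Over all genes, calls numbered 350 in I against C (953 with the block, 529 with DESeq2), 273 in DI against D (706 with the block), 194 in D against C (2200 with the block, 650 with DESeq2, 119 with no filter, 16 with the compared groups alone, 1 without replicate 3) and 106 in DI against I (1658, 471, 84, 0 and 2). With library size alone the split of higher and lower calls moved from 78 and 116 to 199 and 89 in D against C and from 16 and 90 to 54 and 65 in DI against I. CGAS and STING1 lay near the floor of 3 counts, which limits what could be detected for them.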
